A study of Homo sapiens
Mus musculus with 8 samples.

Results

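The subject is 21 heat shock and chaperonin genes of mouse and their 21 human counterparts, 42 of the 60736 genes counted in a mixture of 4 lymphocyte cell lines. They were taken by name, from lists drawn up with earlier results of these data known. The lists held the HSP90 genes with the co-chaperones Stip1 and Ahsa1, the HSP70 genes with their partners, the mitochondrial folding genes, 7 subunit genes of the TRiC chaperonin and the regulator Hsf1. Mouse and human genes were read apart. All 42 had UMIs in at least 1 library and 41 passed the filter on low counts in every comparison, the exception being BAG3 within TALL-104.

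Chaperones bind proteins that are not yet folded and release them, driven by ATP. HSP70 proteins take up newly made chains with the help of J-domain partners, HSP90 completes the folding of kinases and other signalling proteins, and the ring-shaped TRiC folds actin and tubulin. Most of these genes are active in every growing cell, and HSF1 raises many of them further when proteins unfold, as in heat or other stress.

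The study compared high-throughput single-cell RNA-seq kits on equal parts of 4 lines: the mouse T-cell line EL4, the mouse B-cell line IVA12, and the human lines Jurkat (CD4 T-cell) and TALL-104 (CD8 T-cell, grown with IL-2). The labels name no heat, drug or other treatment for any line, and the groups differ by line, kit and preparation. Chromium 3p kits count each messenger RNA from its 3′ end and 5p kits from its 5′ end, as unique molecular identifiers (UMIs). Used here were 4 libraries of 3p v3, 2 of 5p v1 and 1 of 3p v2.

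The 3p v3 libraries came from 2 preparations of the mixture. Titles 21 and 23 (replicates 1 and 3) share one preparation, and titles 22 and 24 (replicates 2 and 4) share the other. They are called 21+23 and 22+24 below. Both 5p v1 libraries came from a further preparation and 3p v2 from yet another, so kit and preparation of the cells cannot be told apart between kits. Libraries of one preparation are technical replicates, and p-values measure only the spread between them. Whether the lines were cultured separately for each preparation is not given in the sources used here.

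Cells had at least 1000 UMIs, over 80% of UMIs from one species and under 10% mitochondrial UMIs, and were assigned to a line by a few marker genes that were left out of the tests. Used cells numbered 872 in 3p v2, 3764 and 1748 in 5p v1, and 1372 to 9649 in 3p v3. Total UMIs ran from 24790710 to 251164949 per library. Of markers not used for assignment, the EL4 list summed to 2051 to 2980 CPM in EL4 and at most 49.9 in IVA12. The TALL-104 list summed to 2488 to 8921 in TALL-104 and at most 69.2 in Jurkat. In that list CCL5 had 157 to 9445 UMIs in TALL-104 and 1 to 458 in Jurkat. CD8B, by contrast, had 0 to 3 UMIs in TALL-104 and 10 to 405 in Jurkat, and KLRD1 had at most 17 and 13. The IVA12 list summed to 622 to 1184 in IVA12 and 58.1 to 126 in EL4, while the sum of the Jurkat list, which holds CD3 genes, overlapped between the human lines, with 935 to 1198 in Jurkat and 879 to 1679 in TALL-104. Of its genes, TAL1 had 121 to 2753 UMIs in Jurkat and 0 to 17 in TALL-104. CD28 had 122 to 2996 against 0 to 17, and CD3E 774 to 27082 against 46 to 1796. The UMI ranges of single genes are raw counts and cannot be read as differences in level between lines. The sums held 1371447 to 59159067 UMIs in Jurkat and only 91168 to 2240642 in TALL-104. The B-cell markers Cd79a and Pax5 had at most 8 and 15 UMIs in any IVA12 sum, while Cd79b had at least 528. CD4 had at most 59 UMIs in any Jurkat sum. Pairs within 3p v3, and pairs among 3p v2 and 5p v1, shared between 1 and 22 cell barcodes. The most were in 3p v3 replicates 1 and 3, where 6.4 were expected from the numbers of cells. Pairs of a 3p v3 library with another kit were not compared.

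Preparation 22+24 stood apart in the human lines. The mitochondrial limit kept 45.4% and 40.2% of Jurkat cells in replicates 2 and 4, against 96.6% and 99.3% in replicates 1 and 3. The Jurkat cells kept had medians of 10145 and 9834 UMIs in 22+24 and of 17729 and 17941 UMIs in 21+23. The limit kept 62.7% and 48.0% of TALL-104 cells in 22+24 against 78.6% and 99.6% in 21+23, and the median share of ribosomal UMIs in the cells kept was 14.2% in both against 22.4% and 23.1%. In TALL-104, free human RNA, estimated from mouse cells, came to 6.37% and 14.4% of the UMIs in 21+23 and to 1.90% and 3.53% in 22+24.

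Levels are given as CPM, UMIs of the gene per 1000000 UMIs of the line in a library, scaled by TMM, a factor that holds the bulk of genes level between sums. The exceptions are the marker sums above and the sums by mitochondrial share below, which carry no TMM factor. Without that factor, the median gene stood higher in 22+24 than in 21+23 by 0.34 (EL4), 0.24 (IVA12), 0.44 (Jurkat) and 0.34 (TALL-104) on the log2 scale, against 0.03 or less in either direction with it. Fold changes between preparations are therefore relative to the median gene. The printed levels are scaled over all sums of a species, and the fold changes over the sums in their own fit, so a small fold change can differ in sign from the printed levels.

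**Figure D1:**
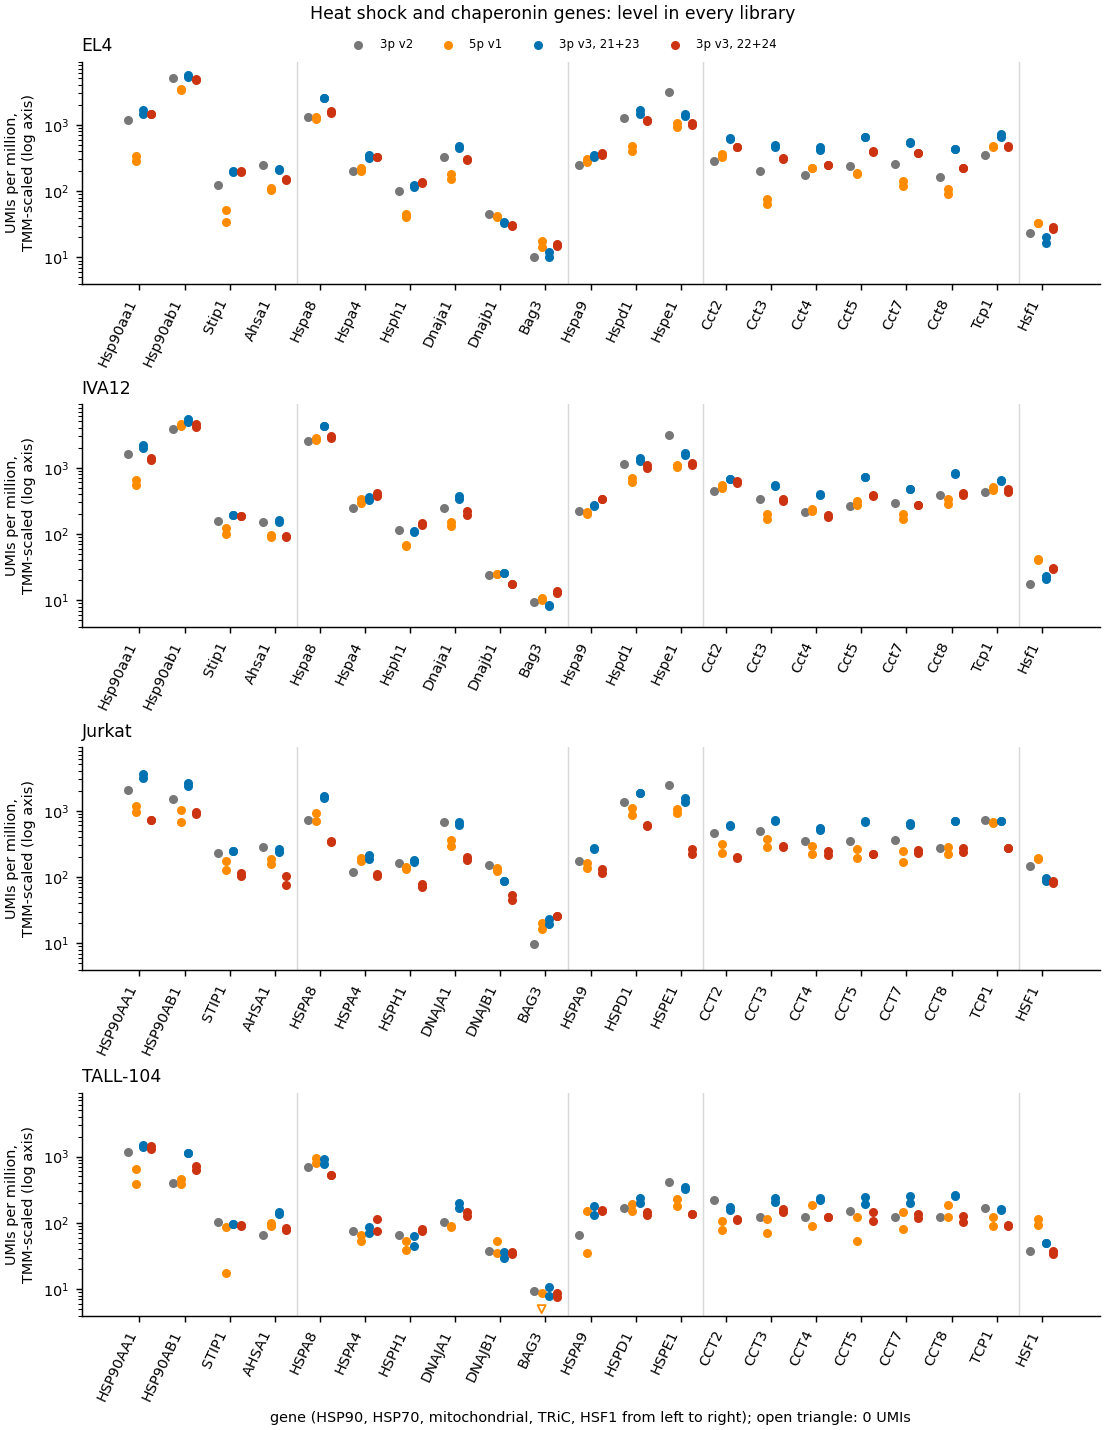
Level of each gene in every library (CPM, TMM-scaled, log axis), 1 panel per line, with a point per library coloured by kit and preparation and an open triangle for a library with 0 UMIs. In Jurkat the red points of 22+24 lie below the blue points of 21+23 for every gene but BAG3, such as HSPE1 at 267 and 220.4 against 1579 and 1337.

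In Jurkat, HSP90, HSP70, mitochondrial and TRiC genes were together lower in preparation 22+24 than in 21+23. Of the 21 genes, 19 were lower and 0 higher at an adjusted p under 0.05 (edgeR's quasi-likelihood test with Benjamini-Hochberg adjustment over all genes). Of the 14096 genes tested, 28.8% were lower, 25.2% higher and 53.9% called in either direction. The median log2 fold change of the 21 genes was -1.45, against 0.03 over all genes. The 2 genes that did not pass were BAG3 and HSF1.

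HSP90AA1, the inducible form of the cytosolic HSP90, had 3549 and 3163 CPM in 21+23 and 728 and 718 in 22+24. The log2 fold change was -2.27 ± 0.13 (SE, adjusted p = 5.8e-18 by edgeR's quasi-likelihood test). HSP90AB1, the constitutive form, had 2351 and 2626 against 954 and 885, with a log2 fold change of -1.49 ± 0.14. All 4 genes of the HSP90 group were called lower. STIP1, which hands clients from HSP70 to HSP90, had 243 and 249 against 115 and 103. AHSA1, which stimulates the ATPase of HSP90, had 263 and 243 against 102 and 77.1.

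HSPA8, the constitutive HSP70, had 1640.2 and 1558 CPM in 21+23 and 336 and 345 in 22+24 (log2 fold change -2.28 ± 0.13, adjusted p = 1.5e-17 by edgeR). Its J-domain partner DNAJA1 had 613 and 678 against 202 and 182 (-1.81 ± 0.13). Of the 6 genes of this group, 5 were lower, the others being HSPA4 (-0.95 ± 0.12) and HSPH1 (-1.26 ± 0.13), which exchange nucleotide on HSP70, and the J-domain gene DNAJB1 (-0.86 ± 0.13). BAG3, a co-chaperone that HSF1 induces under stress, was not called, with 23.0 and 19.5 CPM against 25.5 and 25.5 (0.22 ± 0.16, adjusted p = 0.25 by edgeR).

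The mitochondrial pair HSPD1 (HSP60) and HSPE1 (HSP10), which form 1 folding chamber and are read from a shared promoter, were both lower relative to the median gene. HSPE1 had 1579 and 1337 CPM in 21+23 and 267 and 220.4 in 22+24, the strongest change of the 21 genes (-2.65 ± 0.13, adjusted p = 5.4e-19 by edgeR). HSPD1 had 1819.5 and 1874 against 597 and 617 (-1.66 ± 0.13). HSPA9, the mitochondrial HSP70, had 266 and 276 against 116 and 131 (-1.17 ± 0.12).

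All 7 TRiC genes were lower in 22+24 in Jurkat, and their changes lay close together, from -1.27 ± 0.13 for CCT4 to -1.67 ± 0.13 for CCT5, with a median of -1.45. CCT8, for example, had 695 and 693 CPM in 21+23 and 273 and 243 in 22+24. TCP1, the alpha subunit, had 708 and 699 against 277 and 275. HSF1, the transcription factor of the heat shock response, had 97.4 and 87.4 against 80.4 and 86.6 and was not called (-0.19 ± 0.12, adjusted p = 0.20 by edgeR).

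Of the 12 proliferation genes, 8 were lower and 2 higher in the same contrast, with a median of -0.57, and their part in the result was not tested. The count of 19 lower genes in Jurkat was the same without the TMM factor, where 1 gene, BAG3, was higher. It was the same with no mitochondrial limit, and, as alternatives chosen after seeing the data, among cells with at least 5000 UMIs or with 5 to 10% mitochondrial UMIs. Among Jurkat cells with 5 to 10% mitochondrial UMIs, the 4 HSP90 genes summed to 6285 and 5884 CPM, over non-mitochondrial UMIs, in replicates 1 and 3 and to 2383 and 2347 in replicates 2 and 4. The 7 TRiC genes summed to 4526 and 4251 against 2239 and 2215. In 22+24 the cells with 10 to 20% mitochondrial UMIs, which the limit removed, had HSP90 sums of 2135 and 2353, near those of the cells kept. In 21+23 the cells under 2.5% had lower sums than those at 5 to 10%, at 3475 and 3684 for HSP90.

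**Figure D2:**
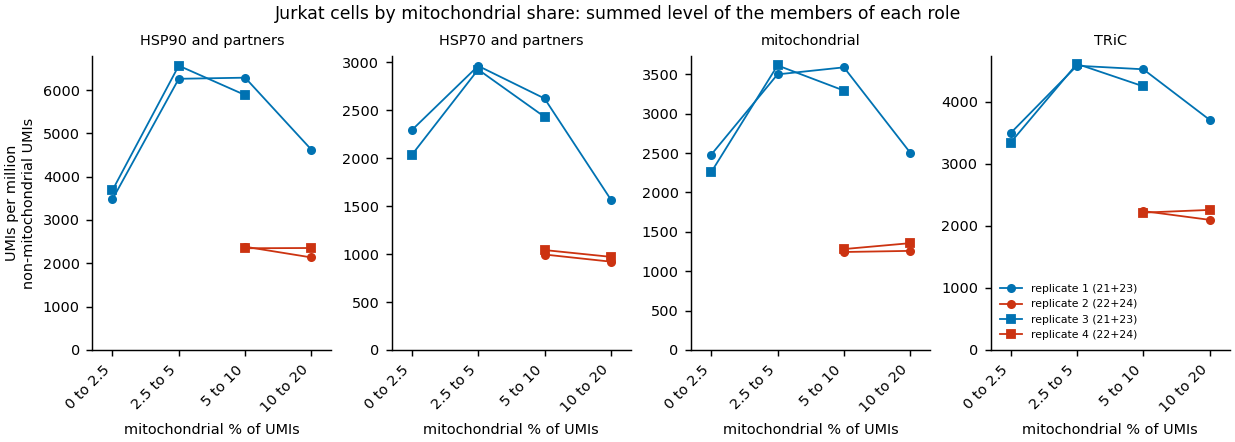
Summed level of the genes of 4 roles in Jurkat cells by the mitochondrial share of the cell, with a line per 3p v3 library. Levels are CPM over non-mitochondrial UMIs, without TMM, on an axis from 0. Bins of under 20 cells are left out. At 5 to 10% the HSP90 sums are 6285 and 5884 in 21+23 (blue) and 2383 and 2347 in 22+24 (red).

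The other lines showed smaller differences between the preparations. In EL4, 12 genes were lower and 2 higher (29.4% of the 12134 genes tested were lower, 27.4% higher and 56.7% either), with a median of -0.43. In IVA12, 14 were lower and 5 higher (34.4%, 33.0% and 67.3% of 11957), with a median of -0.48. In TALL-104, 10 of the 20 genes tested were lower and 1 higher (17.9%, 18.9% and 36.8% of 7715), with a median of -0.42. Over all genes tested the medians were -0.02, -0.02 and 0.03. Without the TMM factor the split was 7 higher and 6 lower in EL4, 6 and 12 in IVA12, and 3 and 2 in TALL-104, so the direction of the smaller changes rests on that scaling.

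Of the 7 TRiC genes, 7 were lower in 22+24 in EL4, 6 in IVA12, 7 in Jurkat and 5 in TALL-104. Without the TMM factor these counts were 4, 6, 7 and 1, and in TALL-104 the count was 2 with DESeq2, 1 with the free RNA subtracted and 2 without 3p v3 replicate 4. Cct8 had 425 and 434 CPM in 21+23 and 227 and 222 in 22+24 in EL4 (-0.92 ± 0.10), and 818 and 833 against 395 and 419 in IVA12 (-0.97 ± 0.08). CCT8 had 263 and 255 against 128 and 103 in TALL-104 (-1.01 ± 0.17). In none of the 4 lines did the CCT8 levels of the preparations overlap. Cct4 changed by a like amount in the mouse lines, by -0.81 ± 0.09 in EL4 and -1.01 ± 0.07 in IVA12.

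In the HSP90 group, AHSA1 was lower in 22+24 in all 4 lines in the main fit, and HSP90AB1 in IVA12, Jurkat and TALL-104. For HSP90AB1 in IVA12 the sign turned without TMM (0.06, against -0.20) and the call was lost without replicate 2, 3 or 4. In TALL-104 most calls of lower genes, over all roles, did not hold without TMM or with the free RNA subtracted. Hsp90aa1 was called in IVA12 and Jurkat. Hsp90aa1 had 1694 and 1476 CPM in 21+23 and 1455 and 1456 in 22+24 in EL4 and was not called (-0.11 ± 0.11, adjusted p = 0.43 by edgeR). HSP90AA1 had 1467 and 1401 against 1294 and 1446 in TALL-104, where the levels overlapped and the fitted fold change was 0.12 ± 0.14 (adjusted p = 0.53 by edgeR), without the sign of the printed levels. In IVA12, Hsp90aa1 had 2198 and 1962 against 1311 and 1408 and was lower in 22+24 (-0.57 ± 0.08).

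Hspa8 was lower in 22+24 in both mouse lines, by -0.69 ± 0.09 in EL4 and -0.51 ± 0.07 in IVA12, and HSPA8 by -0.49 ± 0.14 in TALL-104. In the main fit HSPE1 was lower in all 4 lines, with -1.11 ± 0.17 in TALL-104 and -0.44 ± 0.10 in EL4. Most of the TALL-104 calls of lower genes were lost without the TMM factor or with the free RNA subtracted. Fewer genes were lower in EL4 too without the TMM factor. Stip1 was not called in either mouse line (0.01 ± 0.15 and -0.01 ± 0.08).

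A few genes went the opposite way. Hsf1 was higher in 22+24 in both mouse lines, with 20.4 and 16.7 CPM against 28.5 and 27.0 in EL4 (0.60 ± 0.10) and 23.3 and 20.8 against 30.0 and 31.2 in IVA12 (0.53 ± 0.09). Bag3 was higher too, by 0.50 ± 0.12 in EL4 and 0.72 ± 0.10 in IVA12. In IVA12, Hspa4, Hsph1 and Hspa9 were higher by 0.24 ± 0.08, 0.42 ± 0.07 and 0.38 ± 0.07. These 3 genes were lower in Jurkat. HSPH1 was the single gene higher in TALL-104 (0.65 ± 0.22).

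The TALL-104 count changed with the setting. With the free RNA subtracted, 3 genes were lower and 2 higher, and HSPD1 and TCP1 turned to 1.06 and 0.38 without passing the test. The count was 5 with DESeq2, 7 without 3p v3 replicate 2 and 4 without 3p v3 replicate 4.

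Between the human lines, most of these genes were lower in TALL-104 than in Jurkat, except that HSP90AA1, HSPA8 and HSPA9 were higher in TALL-104 in preparation 22+24. Averaged over the 3p v3 preparations, 21 of 21 were lower in TALL-104 (36.4% of the 11368 genes tested were lower, 33.5% higher and 70.0% called either way), with a median of -1.02 against -0.06 over all genes. In 5p v1, 18 were lower and 0 higher (21.2% lower, 14.5% higher, 35.6% either way), with a median of -1.27 against -0.39. The 5p v1 count was 10 among cells with 5 to 10% mitochondrial UMIs, a limit that left 10 and 4 TALL-104 cells of 69 and 29. The share of calls over all genes that were higher went from 40.6% to 56.1% with DESeq2. The 12 proliferation genes, such as those of the MCM helicase, were lower with them, 12 of 12 in 3p v3 (median -1.87) and 11 of 12 in 5p v1. Their part in the result was not tested.

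HSPD1 showed the widest gap. It had 201 and 238 CPM in TALL-104 against 1819.5 and 1874 in Jurkat in 21+23, 145 and 132 against 597 and 617 in 22+24, and 149 and 195 against 1102 and 867 in 5p v1. The TALL-104 levels in 21+23 include free human RNA, at 6.37% and 14.4% of the UMIs. With it subtracted, the HSPD1 change between preparations in TALL-104 turned its sign, so these levels depend on it. No TALL-104 library reached a Jurkat library, and the log2 fold change was -2.57 ± 0.06 in 3p v3 and -2.59 ± 0.16 in 5p v1. TCP1 (-1.85 ± 0.07 in 3p v3 and -2.55 ± 0.19 in 5p v1) and HSPE1 (-1.43 ± 0.07 and -2.22 ± 0.15) followed. TRiC was lower as a whole, 7 of 7 in both kits, from -1.02 ± 0.07 for CCT4 to -1.85 ± 0.07 for TCP1 in 3p v3.

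The gap between the human lines changed with the preparation for most of the genes. Tested as a difference of differences, it was smaller in 22+24 for 17 of 21 genes and larger for 0 (6.02% and 6.55% of all genes moved in those directions and 12.6% in either), with a median of 0.89 against -0.06. In 21+23 alone, 21 of 21 genes were lower in TALL-104 (36.2% of all genes, with 33.3% higher and 69.4% called). In 22+24 alone, 13 were lower and 3 higher (27.4% and 26.3% of all genes, 53.7% called). The count of 17 was 11 without 3p v3 replicate 4, 12 with DESeq2 and 14 with the free RNA subtracted.

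For HSP90AA1 the order of the lines turned. It was lower in TALL-104 by -1.19 ± 0.06 in 21+23 and higher by 0.95 ± 0.07 in 22+24, a difference of 2.14 ± 0.09. The average over the preparations, -0.12 ± 0.04, describes neither. HSPA8 went from -0.92 ± 0.06 to 0.63 ± 0.08 and HSPA9 from -0.71 ± 0.08 to 0.29 ± 0.13. For CCT4 and CCT8 the change of the gap did not pass the threshold, at 0.34 ± 0.15 (adjusted p = 0.14) and 0.23 ± 0.16 (adjusted p = 0.40) by edgeR's quasi-likelihood test. BAG3 (-0.39 ± 0.57) and HSF1 (-0.35 ± 0.26) were not called either.

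Between kits the gap changed for 3 genes, all higher in 3p v3: DNAJA1 (0.82 ± 0.27), HSP90AA1 (0.79 ± 0.13) and HSPE1 (0.79 ± 0.19), where 5.09% of all genes were higher, 2.95% lower and 8.04% called. With DESeq2 1 gene was higher and 2 lower, and without the TMM factor 2 and 2, while 25.6% and 32.9% of the calls over all genes were higher in place of 63.3%. The count was 1 without 5p v1 replicate 1 and 0 among cells with 5 to 10% mitochondrial UMIs. The 5p v1 sums of TALL-104 held 69 and 29 cells, and STIP1 for example had 20 and 2 UMIs in them. At 5 to 10% mitochondrial UMIs they held only 10 and 4 cells.

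Between the mouse lines the genes split. In 3p v3, 9 were higher and 8 lower in EL4 than in IVA12 (43.8% and 41.2% of the 13079 genes tested, 85.0% either way), a share of calls near that of all genes, with a median of 0.08 against 0.03. Cct8 was the lowest, with 425, 434, 227 and 222 CPM in EL4 (replicates 1, 3, 2 and 4) against 818, 833, 395 and 419 in IVA12 (-0.89 ± 0.05). Hspa8 followed with -0.79 ± 0.05. In each of the 4 libraries EL4 was below IVA12 for both genes. Dnajb1 (0.60 ± 0.05), Ahsa1 (0.57 ± 0.04) and Dnaja1 (0.46 ± 0.05), partners of HSP70 and HSP90, were higher in EL4. Within 21+23 alone, 8 genes were higher and 6 lower in EL4 (42.7%, 38.8% and 81.6% of all genes higher, lower and either), and within 22+24 alone 5 and 5 (39.6%, 38.5% and 78.0%).

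In 5p v1, 13 genes were lower and 5 higher in EL4 (41.0% and 40.2% of all genes, 81.3% either way), with a median of -0.49 against -0.02. Cct8 was lower by -1.65 ± 0.07, Cct3 by -1.37 ± 0.07 and Stip1 by -1.36 ± 0.08. Stip1 had 52.0 and 34.2 CPM in EL4 and 122 and 101 in IVA12 there, while in 3p v3 it had 195 to 203 in EL4 and 185 to 193 in IVA12.

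The difference between the mouse lines thus changed with the kit for 17 of 21 genes, 15 toward EL4 and 2 toward IVA12 (23.6% and 20.2% of all genes, 43.8% either way), with a median of 0.34 against 0.02. Stip1 (1.44 ± 0.09) and Cct3 (1.25 ± 0.09) led, followed by Hsp90aa1 and Cct7 (0.79 ± 0.08 each). Bag3 (-0.40 ± 0.12) and Hspa9 (-0.30 ± 0.08) went the other way. All 12 proliferation genes moved toward EL4 in the same contrast, with a median of 0.95, and their part in the result was not tested. Without the TMM factor 17 genes were toward EL4 and 1 toward IVA12, and 67.8% of the calls over all genes were toward EL4 in place of 53.8%.

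Between the 3p v3 preparations the difference of the mouse lines changed for 4 genes: Hsp90aa1 (0.45 ± 0.09) and Dnajb1 (0.35 ± 0.10) toward EL4, Cct2 (-0.29 ± 0.09) and Hspa9 (-0.27 ± 0.09) toward IVA12, where 16.8% of all genes were called (7.00% and 9.80%). That count was 1 without 3p v3 replicate 4, 2 without 3p v3 replicate 3, 0 with no library block and 10 with DESeq2. It was 7 without 6 barcodes called EL4 in replicate 4 that held over 200000 UMIs each.

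**Figure D3:**
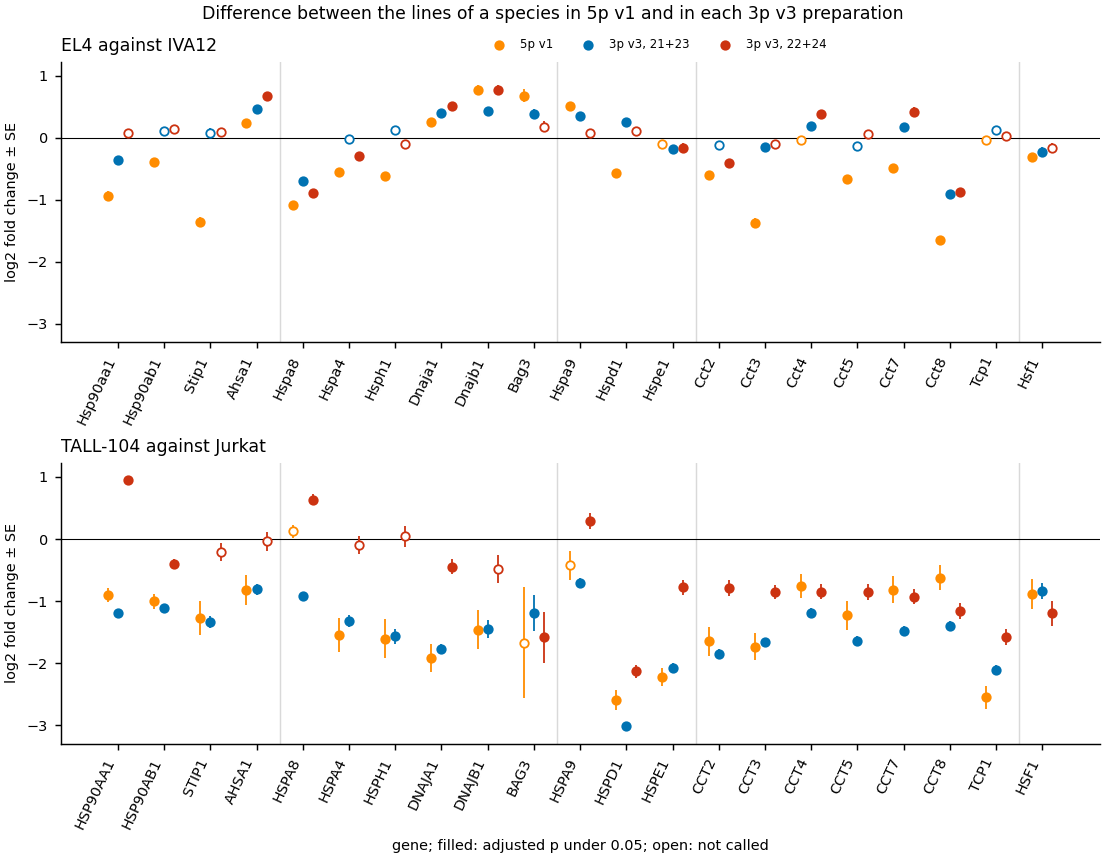
Log2 fold change with SE between the lines of a species, EL4 against IVA12 (upper) and TALL-104 against Jurkat (lower), in 5p v1 and in each 3p v3 preparation, filled where the adjusted p is under 0.05. HSP90AA1 stands at -0.90 in 5p v1, -1.19 in 21+23 and 0.95 in 22+24, and Stip1 at -1.36 in 5p v1.

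Between kits, the mouse lines had most of these genes higher in 3p v3 than in 5p v1. In EL4, 18 were higher and 3 lower (35.2% and 33.2% of all genes, 68.4% either way), with a median of 0.67 against 0.02. In IVA12, 16 were higher and 2 lower (29.2% and 30.3%, 59.5% either way), with a median of 0.36 against -0.02. These counts set each kit's mean against the spread of libraries within a preparation. When the spread between the 3p v3 preparations counted as part of the error, 13 genes were called in EL4, 5 in IVA12, 1 in Jurkat and 1 of 20 in TALL-104. Of all genes, 36.0%, 8.60%, 14.3% and 4.76% were called. That fit still took the libraries of a preparation as independent, and 5p v1 came from a single preparation. It therefore does not hold the full spread between preparations. The Jurkat count is below the share over all genes and the TALL-104 count is near it.

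Hsp90aa1 had 344 and 285 CPM in 5p v1 and 1694, 1476, 1455 and 1456 in 3p v3 in EL4 (2.28 ± 0.11, adjusted p = 2.0e-07 by edgeR). In IVA12 it had 657 and 559 against 2198, 1962, 1311 and 1408 (1.46 ± 0.07). The kits did not overlap in either line. Hsp90ab1 differed by 0.61 ± 0.08 in EL4, where the kits did not overlap, and by 0.08 ± 0.06 in IVA12, where they did. Cct3 had 75.9 and 62.9 against 469, 499, 301 and 314 in EL4 (2.48 ± 0.10), and Stip1 was higher by 2.21 ± 0.15. Averaged over the preparations, TRiC was higher in 3p v3 for 7 of 7 genes in EL4 and 6 of 7 in IVA12. In 21+23 alone 7 of 7 were higher in both lines. In 22+24 alone 5 were higher and 0 lower in EL4, and 5 higher and 1 lower in IVA12. The levels of the kits overlapped for Tcp1 in both lines and for Cct4 in IVA12.

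In Jurkat the kit comparison depended on the preparation. Against 5p v1, 16 genes were higher and 2 lower in 21+23 (30.1% and 29.9% of all genes, 60.0% either way), and 1 was higher and 14 lower in 22+24 (29.7% and 32.1%, 61.8% either way). The average gave 10 higher and 6 lower (30.1% and 32.5%, 62.6% either way), or 5 higher and 8 lower without 5p v1 replicate 2. HSP90AA1, with 1162 and 949 CPM in 5p v1, was higher in 21+23 by 1.66 ± 0.12 and lower in 22+24 by -0.61 ± 0.12. The level of the 5p v1 libraries lay between the preparations for that gene. CCT8, at 280.1 and 219 in 5p v1, was higher in 21+23 by 1.46 ± 0.12 and did not differ past the threshold in 22+24 (-0.03 ± 0.13).

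In EL4, by contrast, both preparations lay above 5p v1: 17 genes were higher and 3 lower in 21+23 (33.9% and 34.0% of all genes, 68.0% either way) and 15 and 1 in 22+24 (34.2% and 30.4%, 64.6% either way). In IVA12 these counts were 17 and 2 in 21+23 (30.5% and 31.6%, 62.2% either way) and 13 and 3 in 22+24 (31.6% and 31.1%, 62.6% either way). In TALL-104 they were 5 and 1 (9.66% and 7.21%, 16.9% either way) and 2 and 3 (14.4% and 13.7%, 28.2% either way). Averaged over the preparations, 4 of 20 genes in TALL-104 were higher and 2 lower (10.4% and 10.1%, 20.5% either way). HSP90AA1, at 659.8 and 389 in 5p v1 against 1294 to 1467 in 3p v3, was among them (1.20 ± 0.15), as were HSP90AB1 (0.87 ± 0.16), CCT3 (0.77 ± 0.25) and DNAJA1 (0.71 ± 0.26). The count was 2 among cells with 5 to 10% mitochondrial UMIs, of which the 5p v1 libraries held 10 and 4.

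HSF1 was lower in the average of 3p v3 in every line, though in EL4 not past the threshold in 22+24 alone (-0.25 ± 0.10, against -0.84 ± 0.10 in 21+23). Most of the other genes were higher in EL4 and IVA12 but not in Jurkat or TALL-104. The log2 fold change of HSF1 against 5p v1 was below 0 and called in EL4 (-0.54 ± 0.09), IVA12 (-0.70 ± 0.07), Jurkat (-1.15 ± 0.10) and TALL-104 (-1.39 ± 0.31). In Jurkat it had 188 and 193 CPM in 5p v1 and 97.4, 87.4, 80.4 and 86.6 in 3p v3, with no overlap. Dnajb1 was lower as well in EL4 (-0.37 ± 0.07), IVA12 (-0.24 ± 0.08) and Jurkat (-1.02 ± 0.10). Its levels in the kits overlapped in IVA12, where it was also lower in 22+24 than in 21+23.

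**Figure D4:**
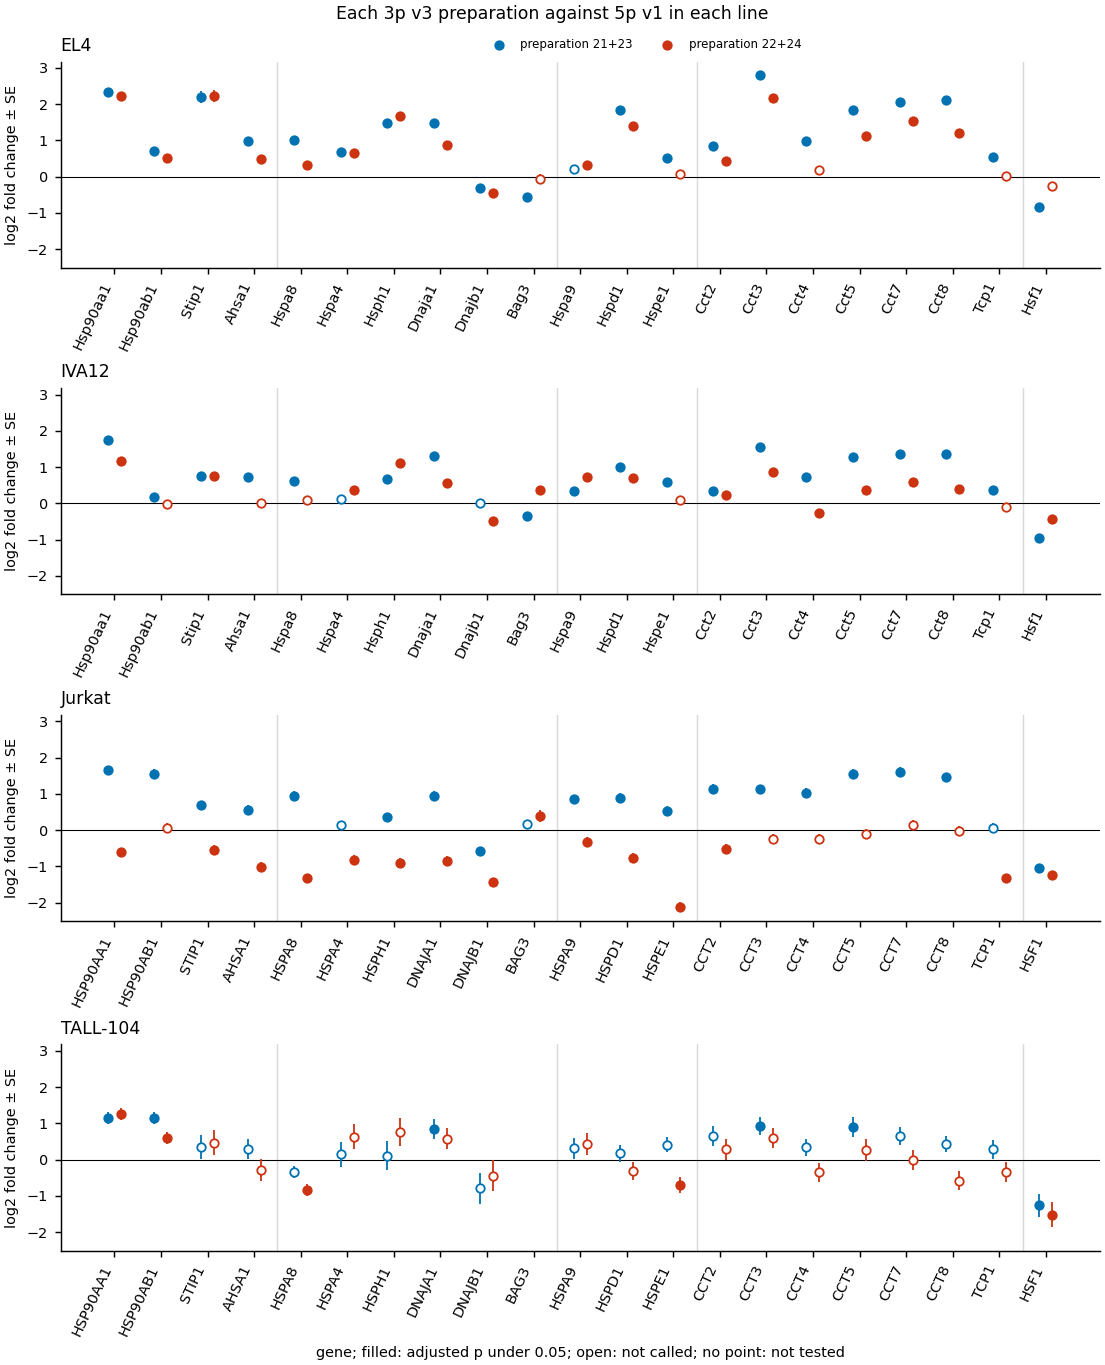
Log2 fold change with SE of each 3p v3 preparation against 5p v1, 21+23 in blue and 22+24 in red, in each line, filled where the adjusted p is under 0.05. In EL4 Hsp90aa1 stands at 2.34 and 2.22, while in Jurkat HSP90AA1 stands at 1.66 and -0.61 and HSPE1 at 0.53 and -2.12.

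The single 3p v2 library has no replicate check. It counts 3′ ends, as 3p v3 does. Its level lay nearer to the mean of 5p v1 than to that of 3p v3 for 9 of 21 genes in EL4 and 11 in IVA12. In Jurkat it did so for 8 and in TALL-104 for 9. It lay nearer to 3p v3, averaged over its preparations, for the other 12, 10, 13 and 12. The same share over all genes was not computed, so no conclusion is drawn from these counts. The TALL-104 sum held 41 cells, with 1 UMI (BAG3) to 125 UMIs (HSP90AA1) per gene. Hspe1 was at 3115 CPM in EL4 and 3128 in IVA12 there, above every other library of these lines. In Jurkat HSPE1 was at 2427 and HSP90AA1 at 2030.2, the latter between the 3p v3 preparations.

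Other genes of the folding machinery were mostly lower in 22+24 in Jurkat, where 28.8% of all genes tested were lower and 53.9% were called in either direction. Of 11 further genes of the chaperonin and of prefoldin, which delivers actin and tubulin to TRiC, 10 were lower than in 21+23 and 0 higher, such as TXNDC9 (-1.66 ± 0.14), VBP1 (-1.63 ± 0.13) and CCT6A (-1.47 ± 0.12), the TRiC subunit left off the list. Of 16 co-chaperones 14 were lower, among them BAG2 (-1.77 ± 0.14) and PTGES3 (-1.62 ± 0.13), the HSP90 co-chaperone p23. Of 10 further heat-inducible genes tested 9 were lower, and of 11 mitochondrial chaperone and protease genes 8 were, with GRPEL1, the nucleotide exchange factor of HSPA9, at -1.74 ± 0.14. All 8 actin and tubulin genes, clients of TRiC, were lower too (median -1.42). HSF2 (-0.46) was lower and HSF4 (0.82) higher, both of the HSF family, and HSBP1, which binds HSF1, was lower (-1.26). The medians were -1.35 for the chaperonin and prefoldin list, -0.92 for co-chaperones, -1.17 for heat-inducible genes and -0.64 for the mitochondrial list.

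In the other lines, the share of all genes that was lower in 22+24 was 29.4% in EL4, 34.4% in IVA12 and 17.9% in TALL-104, and the share called in either direction was 56.7%, 67.3% and 36.8%. The prefoldin and chaperonin list was lower for 8 of 10 genes in EL4 (median -0.91), 8 of 10 in IVA12 (-0.88) and 8 of 10 in TALL-104 (-0.84). Pfdn4 led in EL4 (-1.55 ± 0.13) and IVA12 (-1.57 ± 0.08). The 8 client genes were lower for 8 in EL4, 7 in IVA12 and 7 of 7 tested in TALL-104. The co-chaperones were lower for 13 of 16 in EL4, 9 of 16 in IVA12 and 2 of 14 tested in TALL-104, the last near the share of all genes. Counts of these lists, here and in Jurkat, come from the main fit only, and the alternatives were read for the 21 genes alone. Among those, the TRiC count of 5 in TALL-104 was 1 without the TMM factor and 1 with the free RNA subtracted. The TRiC count of 7 in EL4 was 4 without the TMM factor. The 8 immediate early genes, which respond to handling and stress, had 2 higher and 3 lower in Jurkat, 1 and 3 of 7 tested in EL4, 1 and 6 of 7 in IVA12, and 0 and 3 of 3 in TALL-104. Their called shares in Jurkat and EL4 were near those of all genes.

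Few UMIs were counted for the heat-inducible HSP70 genes in mouse cells: Hspa1a had 0 to 2 UMIs and Hspa1b 0 or 1 UMI in any sum, too few to test. In human cells the paralogs HSPA1A and HSPA1B, which are almost identical in sequence, differed in their split between the lines. HSPA1A had 83.4, 53.6, 30.6 and 36.4 CPM in TALL-104 (3p v3 replicates 1, 3, 2 and 4) and at most 0.54 in Jurkat. HSPA1B had 22.4, 21.1, 8.10 and 6.74 in Jurkat and 15.5, 11.1, 1.91 and 13.2 in TALL-104. How reads that fit both copies were counted was not examined here, so the split between the copies is uncertain. Whether the mouse counts carry a like limit was not tested. In Jurkat HSPA1B was lower in 22+24 (-1.66 ± 0.22). HSPE1-MOB4, a read-through gene that overlaps HSPE1, had 11 and 3 UMIs in 5p v1 Jurkat and 0 in every other sum.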

How the data were processed

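UMI counts per gene and barcode were read from 7 libraries; replicate 1 of 3p v2 was not analysed here. The authors downsampled reads with seqtk, mapped them with STAR inside Cell Ranger (3.0.2 in the file headers) to hg19 and mm10 together, and deposited raw counts for all barcodes. No per-sample column was left unused. Cells were chosen as above (EL4 where Lgals1, S100a6 and Perp summed to at least 5 times Epcam, Cd24a, Ctss and Ckap4, and IVA12 for the reverse; TALL-104 where NKG7, CST7 and CD8A made at least 0.1% of UMIs, Jurkat under 0.02%), and counts were summed per library and line. Barcodes of mixed species were left out and no doublet caller was run. Sums were fitted in edgeR 4.0.16 (quasi-likelihood, robust, TMM, filterByExpr) in R: lines with each library as a block and a line effect per preparation, kits and preparations within a line by preparation means. The fold changes of 3p v3 average its preparations. Adjusted p-values cover all genes tested. In simulated counts with 1 log2 unit of change, the fits called 94.50% of changed genes for EL4 against IVA12 and 76.24% for TALL-104 against Jurkat in 3p v3, and 97.50% (EL4), 65.00% (Jurkat) and 85.50% (TALL-104) between preparations. Of the calls, 2.841% to 6.897% fell on unchanged genes. The simulation changed at most 200 genes and gave all genes the same spread. Far more genes were called in the data, so these shares cannot be carried over to them. Alternatives were DESeq2 1.42.0, no filter, no TMM, other cell limits, free RNA subtracted (from barcodes over 95% of the other species), no blocks and each library left out. Members and lists were chosen with earlier results of these data known. All members are named, and up to 4 called genes of largest change from each other list. Genome positions and sequences are not used here.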

Additional observations from a re-analysis of the deposited data

Results flagged for a closer look

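Differences between groups in 4 contrasts passed a test of the difference itself. The gap between EL4 and IVA12 changed between 3p v3 and 5p v1 for 17 of 21 genes (43.8% of all genes tested), most for Stip1 (1.44 on the log2 scale), and between the 3p v3 preparations for 4 genes, most for Hsp90aa1 (0.45), a share near the 16.8% of all genes and a count that ran from 0 with no library block to 10 with DESeq2. The gap between TALL-104 and Jurkat changed between 5p v1 and the average of the 3p v3 preparations for 3 genes (8.04% of all genes), most for DNAJA1 (0.82). Between the 3p v3 preparations it changed for 17 genes (12.6% of all genes), most for HSP90AA1 (2.14). Among 84 sets of 4 3p v3 libraries, 1 held a library far from the other 3: Hsp90aa1 in EL4 stood at 1694 CPM in replicate 1. The limit used marks about 1 set in 20 by chance only where the 4 libraries are alike. Here they came from 2 preparations, so that rate does not apply. No conclusion about outliers is drawn from this count.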

How the results depend on the processing

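The count of genes called in Jurkat between the preparations was 19 under every alternative but the one without TMM scaling, where it was 20. Without a preparation term the kit counts were 13 in EL4, 5 in IVA12, 1 in Jurkat and 1 in TALL-104, where 36.0%, 8.60%, 14.3% and 4.76% of all genes were called. The change between preparations of the gap between EL4 and IVA12 was called for 10 genes with DESeq2, 8 without TMM, 2 without the filter on low counts, 0 without the library block, 2 with no mitochondrial limit and 7 without barcodes over 200000 UMIs, and for 1 to 6 with a library left out. The preparation count in TALL-104 was 5 with DESeq2, 5 without TMM, 5 with free RNA subtracted and 4 to 11 with a library left out. With 5 to 10% mitochondrial UMIs, TALL-104 against Jurkat gave 10 genes in 5p v1 and 0 for its change between kits, and the kit count in TALL-104 was 2. That limit left 10 and 4 TALL-104 cells in the 5p v1 libraries. With a library left out, the change of the gap between TALL-104 and Jurkat was called for 1 to 3 genes between kits and 11 to 17 between preparations. Signs turned for Hsp90ab1 in IVA12 between preparations without TMM (0.059), and for HSPD1 (1.06) and TCP1 (0.38) in TALL-104 with free RNA subtracted. The causes of these moves were not tested. The limits of 5000 and 200000 UMIs and of 5 to 10% mitochondrial UMIs were chosen after seeing the data. Without TMM the share of calls over all genes that were higher in 22+24 went from 48.2% to 78.0% in EL4, 49.0% to 65.3% in IVA12, 46.7% to 71.1% in Jurkat and 51.4% to 80.4% in TALL-104. For the change of the gap between TALL-104 and Jurkat it went from 47.9% to 68.95% between preparations and from 63.35% to 32.9% between kits (25.6% with DESeq2), and in 5p v1 alone from 40.6% to 56.1% with DESeq2, and for EL4 and IVA12 from 41.65% to 69.9% between preparations. Replicate numbers follow the order of accessions and pair no libraries across kits. Within 3p v3, a block for the targeted number of cells (3000 or 6000) gave preparation counts of 16 in EL4, 19 in IVA12, 19 in Jurkat and 12 in TALL-104, with Hsp90ab1 and Hsph1 in EL4 and HSPA4 in TALL-104 newly called. The TALL-104 sums of 5p v1 held 29 and 69 cells, and the effect of that depth on the calls was not tested.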
